A study of Drosophila melanogaster with 4 samples.

Results

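The caudal visceral mesoderm (CVM) of the Drosophila melanogaster embryo was compared with the remaining embryonic cells of the same age by RNA sequencing. Of 14794 genes in the table of that experiment, 7167 were described here: those with a test status of OK and at least 5 FPKM (fragments per kilobase of transcript, scaled to sequencing depth) in 1 or both conditions. The remainder consisted of 2859 genes of status OK under that floor and of genes of another status, most of which (4647) were marked as not tested. The values closest to the floor were 5.003 FPKM for CG14545 and 5.01 for repo and CG14946 on its upper side, and 4.997 for CG13004, 4.99 for CG40178 and 4.98 for mei-9 below it.

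Per the labels, both populations came from embryos of stages 10 to 13 and were separated by fluorescence-activated cell sorting, one being CVM cells and the other non-CVM cells. The series as a whole holds 4 libraries, 1 for each sorted population. The other pair is hemocytes and non-hemocytes of stages 12 to 16 (the HC experiment). Strain, genotype, and the reporter or driver that marked the sorted cells were not given in any source used here. With 1 library per condition no difference has a replicate check, and none was tested.

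The table calls its conditions q1 and q2, names that occur in no sample label. Directions are therefore given as q1, the condition in which HLH54F is high, against q2, and that gene served to pick the side and is no finding. In bulk samples, fewer cells of a type and less RNA per cell cannot be told apart.

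The CVM arises at the posterior end of the embryo, migrates forward along both sides of the midgut primordium on the trunk visceral mesoderm, and gives rise to the longitudinal muscles of the gut. HLH54F, a bHLH transcription factor, is required for its formation, and FGF signalling through the receptor Heartless keeps the cells on their path and alive. On the way the cells contact matrix through integrins, and later they act as founder cells that fuse with fusion-competent myoblasts.

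Most genes lay close together in both conditions, and the large differences were nearly all on the q1 side. Ratios are log2 of (FPKM q1 + 1) over (FPKM q2 + 1), which understates the change of low genes, so counts past the largest folds below are too low for genes of low FPKM. Among all 7167 genes, 787 (11.0%) passed 2-fold toward q1, 381 (5.32%) at least 4-fold higher in q1, and 273 (3.81%) at least 2-fold higher in q2. Small RNA and mitochondrial genes, 349 in number, supplied 151 of the 273, and 159 of them were listed at 0 in a condition. Without them 6818 genes remained, and all further counts refer to these. At least 2-fold higher in q1 were 695 (10.2%), at least 4-fold higher in q1 306 (4.49%), at least 2-fold higher in q2 122 (1.79%), and 6001 lay within 2-fold.

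The asymmetry grew with the size of the ratio. Past 8-fold there were 108 genes toward q1 and 1 toward q2, and past 16-fold 39 and 1. That single gene was CG42245, at 0.00755 FPKM in q1 and 29.0 in q2, which shares its locus with another gene. The median ratio of all these genes was -0.06. In the authors' deposited table, a q-value under 0.05 was given to 573 genes higher in q1 (8.40%) and 71 higher in q2 (1.04%), calls that compare 2 libraries and not conditions.

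**Figure D1:**
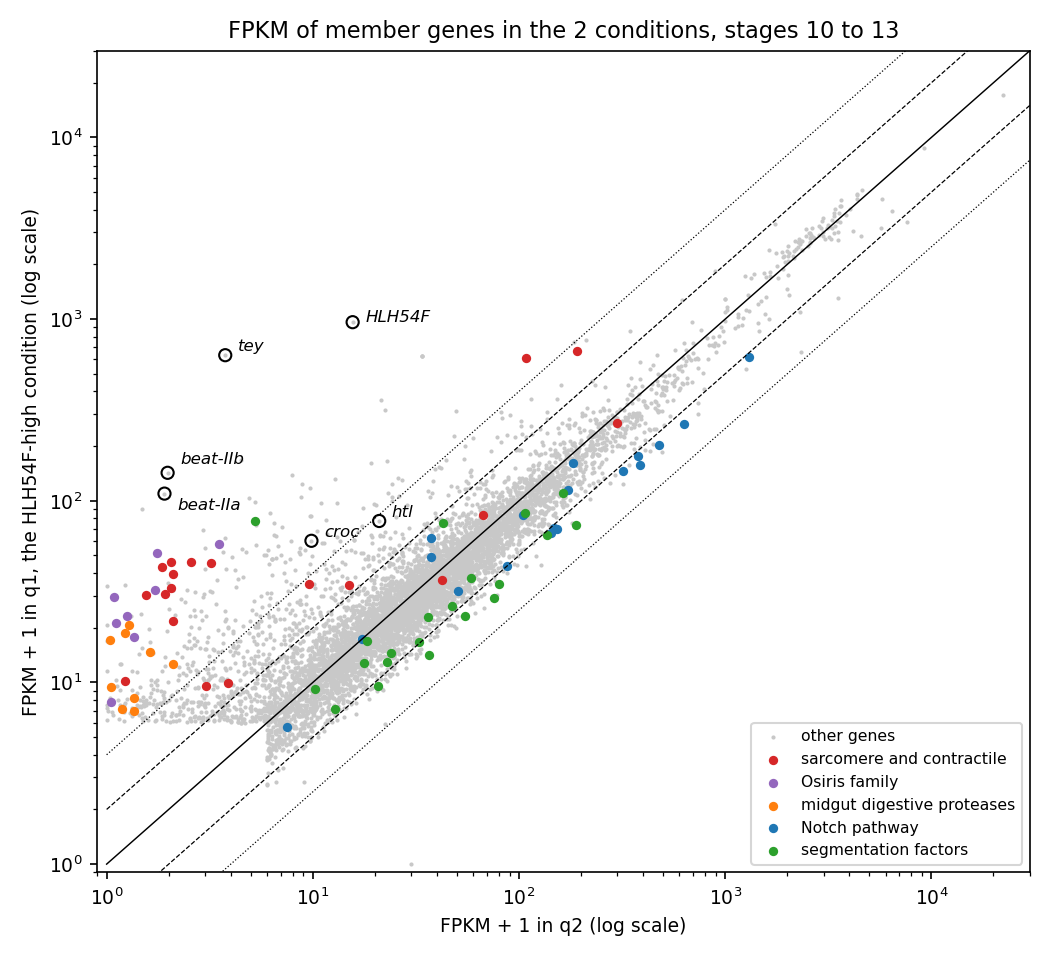
FPKM + 1 of 6818 genes in q1 (vertical, log scale) against q2 (horizontal, log scale), 1 point per gene, 1 library per condition. The solid line marks equal values, dashed lines 2-fold and dotted lines 4-fold; HLH54F, tey, beat-IIa and beat-IIb stand far above the lines, and 1 gene lies beyond 4-fold on the q2 side.

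Absolute levels were lower on the weak side for genes toward q1 than for genes toward q2. The 306 genes at least 4-fold higher in q1 had a median of 20.7 FPKM in q1 and 1.65 in q2, and 116 of them (37.9%) were under 1 FPKM and 77 at 5 FPKM or more in q2. Together they made up 2.28% of the summed FPKM in q1 and 0.222% in q2. The 122 genes at least 2-fold higher in q2 had a median of 41.6 FPKM in q2 and 18.8 in q1, and 107 of them (87.7%) were at 5 FPKM or more in q1. At the same 2-fold size, the 695 genes toward q1 had a median of 19.1 FPKM in q1 and 3.47 in q2, with 285 (41.0%) at 5 FPKM or more in q2. A gene under 5 FPKM in q2 is included only through its level in q1, so counts over gene lists below are descriptions of the included genes, to be read beside the 10.2% and 1.79% of all genes past 2-fold toward q1 and q2.

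The highest levels of all belonged to shared housekeeping genes. RpL41, a ribosomal protein gene at a shared locus, stood at 17211 FPKM in q1 and 22193 in q2, and the translation elongation factor gene Ef1alpha48D at 8796 and 9170. Of 79 cytosolic ribosomal protein genes, none was 2-fold higher in q1 and 1 was in q2, RpL39, at 3404 and 7624 FPKM. The list's median ratio was 0.12.

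The 4 marker genes were all at least 2-fold higher in q1, HLH54F by the choice of side. HLH54F (FBgn0022740, chromosome 2R, 13644922 to 13648022, BDGP5) reached 961 FPKM in q1 against 14.6 in q2. The Beat-family immunoglobulin gene beat-IIa had 109 FPKM in q1 and 0.908 in q2, a log2 ratio of 5.84. For croc, a forkhead transcription factor gene, the values were 59.2 and 8.85 (2.61), and for htl, the FGF receptor gene, 76.4 and 19.99 (1.88). HLH54F had the highest level in q1 among the 306 genes, while croc and htl kept a clear level in q2.

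Other regulators of this tissue split into those with a large ratio and those without. Of 8 identity genes, 4 passed 2-fold toward q1, none toward q2, and their median ratio was 1.27. The 4 include HLH54F, which picked the side, and the marker croc, so the count and median are descriptions only. The zinc finger homeobox gene zfh1 had 128 FPKM in q1 and 25.9 in q2, and cad, the posterior homeobox gene caudal, 43.0 and 11.4. The RNA-binding protein gene how was high in both, at 251 and 153. The forkhead gene fkh (75.5 and 67.4), the mesoderm factor gene twi (34.2 and 36.3) and the hindgut T-box gene byn (6.12 and 10.1) lay within 2-fold.

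The largest ratio of all was that of tey, which encodes a nuclear regulator known from muscle and motor axon targeting, at 632 FPKM in q1 and 2.76 in q2 (7.39). Next came beat-IIb, a Beat-family relative of beat-IIa, at 142 and 0.976 (6.17). The homeobox gene H2.0, known from visceral mesoderm, had 103 and 3.91 (4.40), and bru-3, an RNA-binding protein gene at a shared locus, 167 and 3.47 (5.23). These genes ranked among the 20 largest ratios together with contractile genes, Osiris genes and w.

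**Figure D2:**
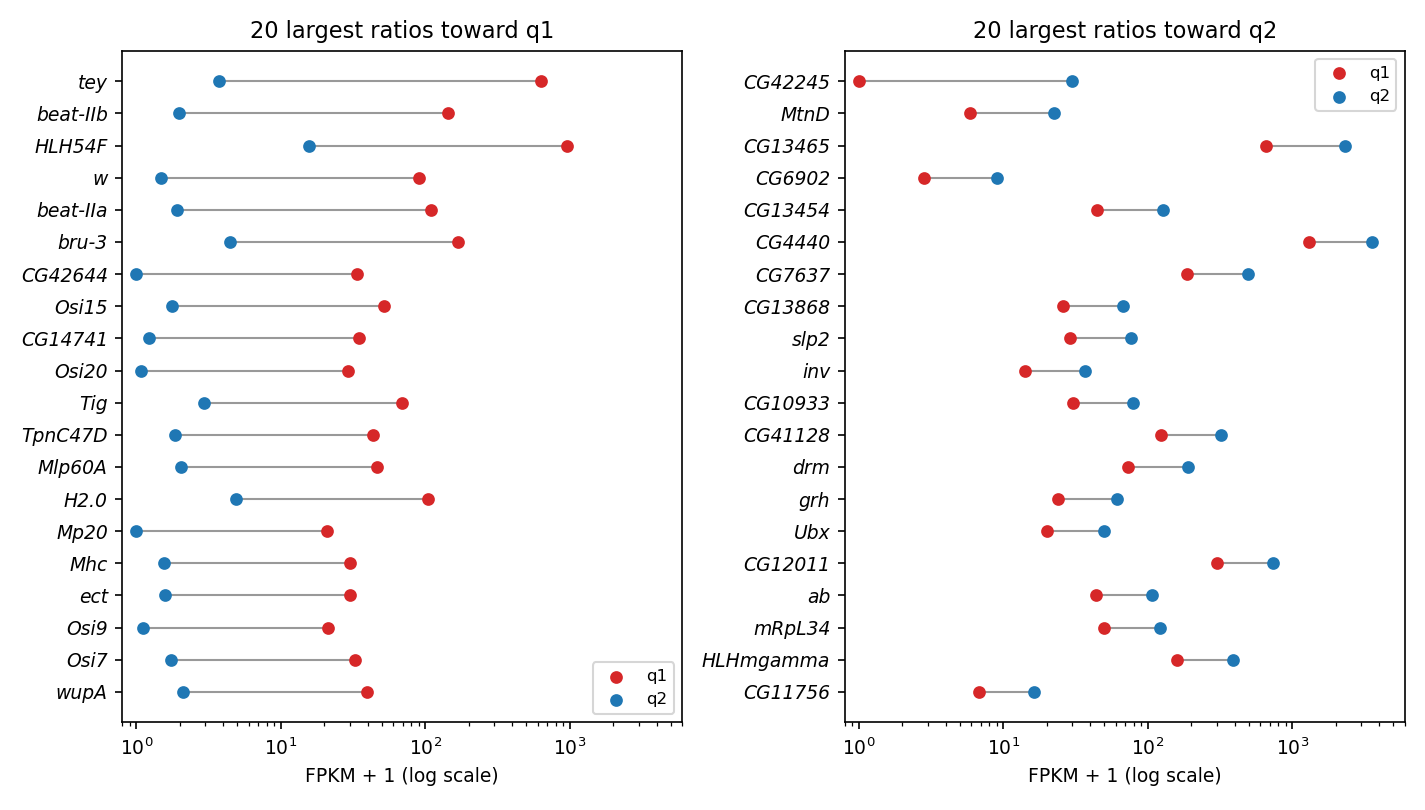
FPKM + 1 (log scale) in q1 (red) and q2 (blue) of the 20 genes with the largest ratio toward q1 (left) and toward q2 (right), 1 library per condition. On the left most q2 points sit near the lowest values; on the right, apart from CG42245, both points of a gene lie close together.

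The FGF and BMP signalling lists differed little between the conditions apart from single members, unlike the Notch list described below. Of 14 genes of the FGF pathway, 3 passed 2-fold toward q1 and none toward q2, and the median was 0.06. These were htl, the adaptor gene stumps (127 and 54.2 FPKM) and the phosphatase gene csw (13.1 and 4.39, shared locus). The genes of the Heartless ligands lay within 2-fold, pyr at 8.11 FPKM in q1 and 14.3 in q2 and ths at 9.84 and 14.95. The tracheal FGF receptor gene btl had 22.8 and 41.0.

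In the BMP pathway, which patterns the mesoderm and the ectoderm around it, 1 of 14 genes passed 2-fold toward q1 and none toward q2. That gene was tok, which encodes a tolloid-related metalloprotease, at 74.7 and 5.49 FPKM (3.55, shared locus). Its relative tld had 12.8 and 23.7, and the ligand gene dpp 16.1 and 25.1. The median ratio of the list was -0.17.

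The adhesion gene kon encodes a transmembrane protein that guides myotubes to their tendon cells, and it had 360 FPKM in q1 and 20.4 in q2 (4.08). Among 16 guidance receptors and ligands, 1 passed 2-fold toward q1, against 10.2% of all genes. It was Sema-5c, a semaphorin gene, at 223 and 77.2. The ligand gene sli stood at 191 and 96.3, just under 2-fold, and Sema-2a (269 and 292) and the Robo receptor gene lea (192 and 265) did not differ by 2-fold. Of the 14 Beat genes, 3 were members, and beat-IIIc (10.4 and 8.68) had no such ratio. The members beat-IIa and beat-IIb were under 5 FPKM in q2 and included only through q1.

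Integrin subunit genes differed among themselves. The laminin-binding subunit gene mew had 167 FPKM in q1 and 43.3 in q2 (1.92, shared locus) and scb 49.2 and 19.7 (1.27). The beta subunit gene mys had 111 and 76.3 and the alpha subunit gene if 23.3 and 16.6, both within 2-fold. Thus 2 of 5 integrin genes passed 2-fold toward q1, with a median of 0.86. Among 14 linkers, 4 passed and none passed toward q2. These were Vinc (vinculin, 14.2 and 2.04), Pax (paxillin, 25.9 and 7.67), rhea (talin, 117 and 57.1) and the kinase gene Src64B (275 and 101), the last 3 at shared loci.

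Of 17 matrix genes included, 8 lay past 2-fold toward q1 and none toward q2, with a median of 0.72. Of these 8, 6 were under 5 FPKM in q2 and included only through q1. The integrin ligand gene Tig (tiggrin, shared locus) had 68.0 and 1.95 FPKM (4.55), the perlecan gene trol 6.92 and 0.505, and the matrix metalloprotease gene Mmp2 22.8 and 4.30. Collagen IV is encoded by Cg25C (18.2 and 3.10) and vkg (10.1 and 1.75). Laminin genes were more abundant and closer, LanA at 282 and 175, LanB1 at 261 and 175 and LanB2 at 267 and 161 FPKM.

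Genes of the migration machinery were near equal. Of 25 cytoskeletal genes, 2 passed 2-fold toward q1 and none toward q2, with a median of 0.21. The profilin gene chic had 1838 FPKM in q1 and 891 in q2, and slbo, a C/EBP gene known from border cell migration in the ovary, 6.68 and 0.611. The cofilin gene tsr (1319 and 1582), Rho1 (650.1 and 693) and the myosin II gene zip (145 and 186) lay within 2-fold.

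Of 27 contractile genes of muscle in the table, 19 were included, of which 16 passed 2-fold toward q1 and 11 passed 4-fold, with none toward q2 and a median of 3.05. Of the 16, 12 were under 5 FPKM in q2 and included only through q1, and 4 were at 5 FPKM or more in both conditions. Muscle myosin heavy chain (Mhc) had 29.2 FPKM in q1 and 0.550 in q2, the troponin C gene TpnC47D 42.1 and 0.852, and the troponin I gene wupA 38.5 and 1.11. The LIM protein gene Mlp60A had 45.0 and 1.04. These levels in q1 lay far below those of the actin genes Act87E (671 and 190.5) and Act57B (613 and 108, shared locus), which were also present in q2.

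The exceptions were Tm1 (tropomyosin, 266 and 296), Actn (alpha-actinin, 35.6 and 41.3, shared locus) and tmod (82.9 and 66.0, shared locus). Mp20, which encodes a muscle protein of the calponin family, was listed at 19.7 FPKM in q1 and at 0 in q2. The titin-like gene sls had 33.8 and 8.54, an intermediate ratio of 1.87.

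Tetraspanins, membrane proteins that organize adhesion and signalling complexes, had 12 of 34 genes included, 3 of them past 2-fold toward q1 and none toward q2. All 3 were included only through q1. Tsp42Er had 14.95 FPKM in q1 and 1.37 in q2, Tsp66E 11.3 and 0.922 (shared locus), and Tsp42Ed 10.5 and 0.859. The more abundant Tsp97E (96.1 and 102) and Tsp42Ee (75.8 and 88.4) lay within 2-fold.

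Genes of myoblast identity and fusion were less uniform, with 3 of 14 at least 2-fold higher in q1, 1 in q2 and a median of 0.56. Mef2, the general muscle transcription factor gene, had 296 and 89.1 FPKM and sing, a gene needed for myoblast fusion, 151 and 41.0. Lower in q1 was nau, a myogenic bHLH gene of somatic muscle, at 3.46 and 8.12, with ap (6.32 and 11.6) on the same side but within 2-fold.

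Markers of the neighbouring trunk visceral mesoderm, on which the CVM migrates, gave no single direction. The FoxF gene bin had 109 and 22.2 FPKM (2.24), mib2 94.1 and 27.7 (shared locus) and Hand 21.3 and 6.26. The homeobox gene bap had 24.8 and 29.9, the receptor gene Alk 6.25 and 13.1, and its ligand gene jeb 13.0 and 21.98. In all 3 of 10 passed 2-fold toward q1 and none toward q2.

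Markers of further cell types also differed between the conditions, and their part in the ratios above was not tested. For hemocytes the 7 defining markers summed to 251 FPKM in q1 and 143 in q2, led by srp (78.8 and 43.5). Only 2 of the 6 members among them passed 2-fold toward q1, and none toward q2. The marker gcm lay on the other side within 2-fold (28.0 and 38.3), and eater was near 0 in both conditions (0 and 0.0423). Sr-CI, a scavenger receptor gene, had 51.1 and 14.97. For the fat body, Rfabg, the apolipophorin gene, had 131 and 11.8, whereas Lsp1beta (0.740 and 0.677) and Fbp1 (0.0555 and 0.0835) were near 0 in both.

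Of 10 heart genes, 3 passed 2-fold toward q1 and 3 toward q2. The heart gene pnr had 25.9 and 56.9 FPKM and mid 9.40 and 21.4, although the T-box genes Doc1 (199 and 53.9) and Doc2 (98.6 and 23.2) were higher in q1. The glial gene repo, with 2.74 and 5.01, lay within 2-fold. Neuronal elav had 86.4 and 127, and the epidermal transcription factor gene grh 23.0 and 59.9. Of 13 genes of epidermis and polarity, 2 passed 2-fold toward q2 and 1 toward q1, dyl, a gene of the apical matrix, at 6.55 and 0.157. The homeobox gene eve, used in segments, neurons and heart progenitors, was higher in q1, at 76.4 and 4.27.

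**Figure D3:**
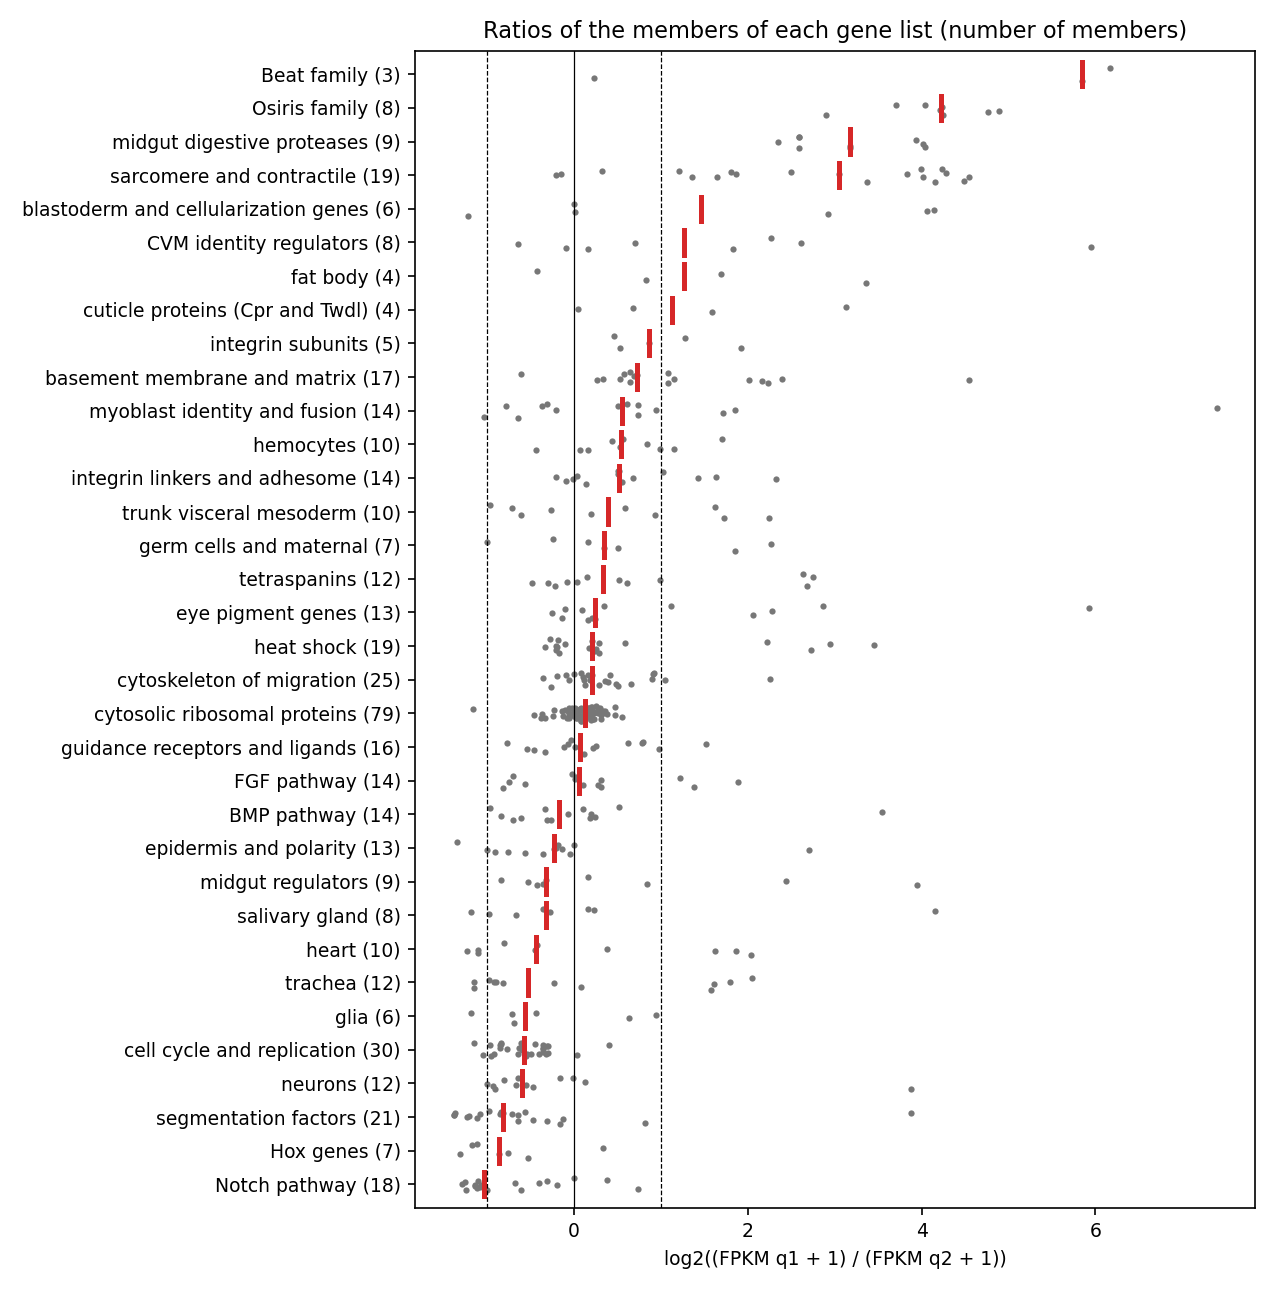
Log2 ratio of each member (grey points) of 34 gene lists with the list's median (red bar) and the number of members in brackets; dashed lines mark 2-fold. Not drawn is the list of reporter-associated genes, with 2 members and a median of 4.10. Among the 34 lists drawn, the Beat, Osiris, protease and sarcomere lists have the highest medians, and the Notch list the lowest. On the Beat, Osiris and protease lists every member past 2-fold was under 5 FPKM in q2 and included only through q1. The same held for 12 of 16 on the sarcomere list, so the order of these medians depends on the floor. Vertical scatter within a list has no meaning.

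The Osiris genes and the digestive proteases had high ratios, with median levels in q1 of 25.2 and 11.6 FPKM. All 8 members of the Osiris family, transmembrane protein genes known from cuticle-forming epithelia, were at least 4-fold higher in q1, with a median of 4.22. Osi6 had 57.1 FPKM in q1 and 2.52 in q2, Osi15 50.9 and 0.751, and Osi14, the lowest, 6.80 and 0.0478. Another 15 Osiris genes were not members. All 9 member genes of 25 digestive proteases were also at least 4-fold higher in q1 (median 3.18), led by Jon99Fi at 16.2 and 0.0437. Every one of these genes was under 5 FPKM in q2 and included only through q1, so the counts lend no support to a family-wide statement.

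On the list of midgut regulators and functional genes, 2 of 9 passed 2-fold toward q1 and none toward q2. They were Gs2, a glutamine synthetase gene, at 31.4 and 1.09 FPKM and mex1 at 15.6 and 2.07. The midgut GATA gene GATAe had 15.6 FPKM in q1 and 19.6 in q2, and the tracheal regulator gene trh 14.2 and 32.6. In the salivary gland list, PH4alphaSG1, a prolyl hydroxylase gene, had 45.7 and 1.63, against 4.41 and 5.55 for the regulator gene sage. The germ cell and maternal list had 2 of 7 members past 2-fold toward q1 and 1 toward q2. Maternal bcd had 6.49 and 0.550 and pgc, a germ cell gene, 10.3 and 2.12 (both at shared loci and included only through q1). On the other side ovo had 12.9 and 26.7, while nos, within 2-fold, had 4.10 and 5.03. The tracheal matrix gene Gasp had 10.5 and 1.77, and verm, a chitin deacetylase gene, 13.6 and 3.21. The trachea list had 4 of 12 members past 2-fold toward q1, all 4 under 5 FPKM in q2, and 2 toward q2. Among 6 blastoderm genes, a list added after the values were seen, 3 passed 2-fold toward q1 and 1 toward q2. Of these, slam (cellularization) had 22.3 and 0.319 and the sex-determination gene sisA 46.7 and 5.31, and halo, on the other side, 8.23 and 20.6. Within 2-fold were vfl (69.3 and 68.5) and Sry-alpha (15.8 and 15.9).

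The eye pigment transporter gene w, also a common transgene marker, had 88.9 FPKM in q1 and 0.478 in q2 (5.93), and in the HC experiment 4128 and 25.2. Further pigment genes, on a list added after the values were seen, were cn (17.4 and 1.51), ry (35.1 and 6.43) and kar (22.1 and 4.55), while lt (35.98 and 38.5) and p (14.8 and 16.3) lay within 2-fold. In all 5 of 13 pigment genes passed 2-fold toward q1 and none toward q2. Of 19 heat shock genes 4 passed toward q1, among them Hsp23 (226 and 47.6) and Hsp26 (59.1 and 6.80), against Hsp83 (157 and 191) and Hsc70-4 (1750.3 and 2011).

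Toward q2, the Notch pathway list held more genes than any other of the lists. Of its 18 members, 10 passed 2-fold toward q2 and none toward q1, with a median of -1.03, and the authors' deposited table calls 3 of them. The bHLH repressor gene HLHmgamma, a Notch target, had 157 FPKM in q1 and 385 in q2, m4 202 and 478, BobA 264 and 629, and Tom 614 and 1300. All 4 are small genes known as targets or modulators of Notch signalling, and all remained abundant in q1.

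Patterning genes followed. Of 21 segmentation genes, 7 passed 2-fold toward q2 and 1, eve, toward q1 (median -0.82). Values were 28.1 and 75.002 FPKM for slp2, 13.1 and 35.7 for inv, 22.2 and 53.5 for en and 72.2 and 187 for drm. Of 7 Hox genes, 3 passed 2-fold toward q2: Ubx (19.0 and 48.7, shared locus), Antp (19.7 and 45.6) and Scr (10.1 and 23.1). The most posterior Hox gene, Abd-B, had 68.1 and 53.9 and was the only member of that list with a ratio above 0.

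Cell cycle genes leaned the same way at small size, with 2 of 30 at least 2-fold higher in q2, none in q1 and a median of -0.58. The ribonucleotide reductase gene RnrS had 124 and 277 FPKM, Mcm3 33.9 and 70.9 (shared locus), and the cyclin gene CycB 458 and 573. Highest on the q2 side after RpL39 were genes with CG numbers or small products, CG4440 at 1304 and 3543, CG13465 at 659 and 2324 and Obp99a, an odorant-binding protein gene, at 1094 and 2300.

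Genes with a CG number in the table formed a large share of the table, and toward q1 they differed about as often as named ones. Of 3281 such genes, 347 (10.6%) passed 2-fold toward q1 and 146 (4.45%) at least 4-fold; among 3537 named genes the numbers were 348 (9.84%) and 160 (4.52%). Toward q2 there were 39 CG-numbered genes (1.19%) and 83 named ones (2.35%). Current annotation gives 46 of the 146 a gene name, and 13 had no match in it.

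Several of these reached the level of the markers. CG31775 and CG42586 had identical values, 624 FPKM in q1 and 32.9 in q2, so their reads cannot be assigned to one of them. CG7763 had 315 and 21.4 (shared locus), CG10157, now named GILT2, 309 and 48.7, and CG4500 164 and 21.8. The antifungal peptide gene dro5, now Drsl5, had 624 and 33.0. CG42644, at 32.9, and CG42566, at 15.8, were listed at 0 in q2, and CG14741, now ATP8B, had 33.6 and 0.225. The locus of CG42644 spans only positions 16024 to 16131 of sequence U, and the authors' deposited table does not call this gene.

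Some of the genes at least 4-fold higher in q1 lay near each other. Of the 306, 104 (33.99%) had another within 20 kb, in 43 runs, of which 15 held 3 or more. Of the 6512 remaining genes, 1007 (15.5%) had one of the 306 within that distance. HLH54F lay in such a run on chromosome 2R, together with CG5002 (160.1 and 18.1 FPKM), CG6385, now Sardh (31.2 and 1.46), and CG5009. In the HC experiment CG5002 (109 and 15.6) and CG6385 (30.0 and 2.89) were also higher in q1, whereas HLH54F was not (16.8 and 48.9). Some other runs were tandem families, such as Osi18, Osi19 and Osi20, or Hsp67Bc, Hsp67Bb, Hsp26 and Hsp23. Further runs were not, such as slam, CG42368 and Tig, or Mhc, Cyt-b5-r and Ugt36Bc. Overlapping loci were counted as within 20 kb.

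The HC experiment, normalized separately and from later stages, gives ratios of the same genes in another sorted pair. Of the 306 genes, 178 were also measured there (status OK and at least 5 FPKM), and 84 of them (47.2%) were at least 2-fold higher in its q1, 30 (16.9%) in its q2 and 64 within 2-fold. Over all 6303 genes measured in both, the shares were 10.6% and 30.6%. A gene under 5 FPKM in q2 of the HC experiment was counted among the 178 only through its q1 there. The floor thus bears on these shares, and they lend no support to an overlap of the 2 experiments. In the other direction, 12.6% of the 667 genes at least 2-fold higher in q1 of the HC experiment were among the 178. No source used here says whether q1 stands for sorted cells in either table. Of 9 hemocyte-list genes measured in both, 8 were at least 2-fold higher in q1 of the HC experiment and 0 in its q2. Pxn, for example, had 358 and 4.39 FPKM there, although eater was near 0 in both conditions. By these genes, q1 of the HC experiment is the side rich in hemocyte transcripts.

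By gene, the CVM markers went the other way in the HC experiment. HLH54F had 16.8 FPKM in its q1 and 48.9 in its q2, croc 1.47 and 6.37, htl 7.95 and 22.03, beat-IIa 2.67 and 6.87, and tey 5.75 and 15.1. Others were high in q1 of both tables, such as Tig (91.8 and 5.51 in HC), CG4500 (397 and 20.9) and CG10157 (923 and 30.8). The markers and tey were thus at least 2-fold higher in q1 of the CVM table and lower in q1 of the HC table. Their HC log2 ratios were -1.49 (HLH54F), -1.57 (croc), -1.36 (htl), -1.10 (beat-IIa) and -1.26 (tey). The median HC ratio of all 6303 genes measured in both was -0.57, and 30.6% of them were at least 2-fold higher in its q2. A direction toward q2 of the HC experiment is therefore not particular to these genes.

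**Figure D4:**
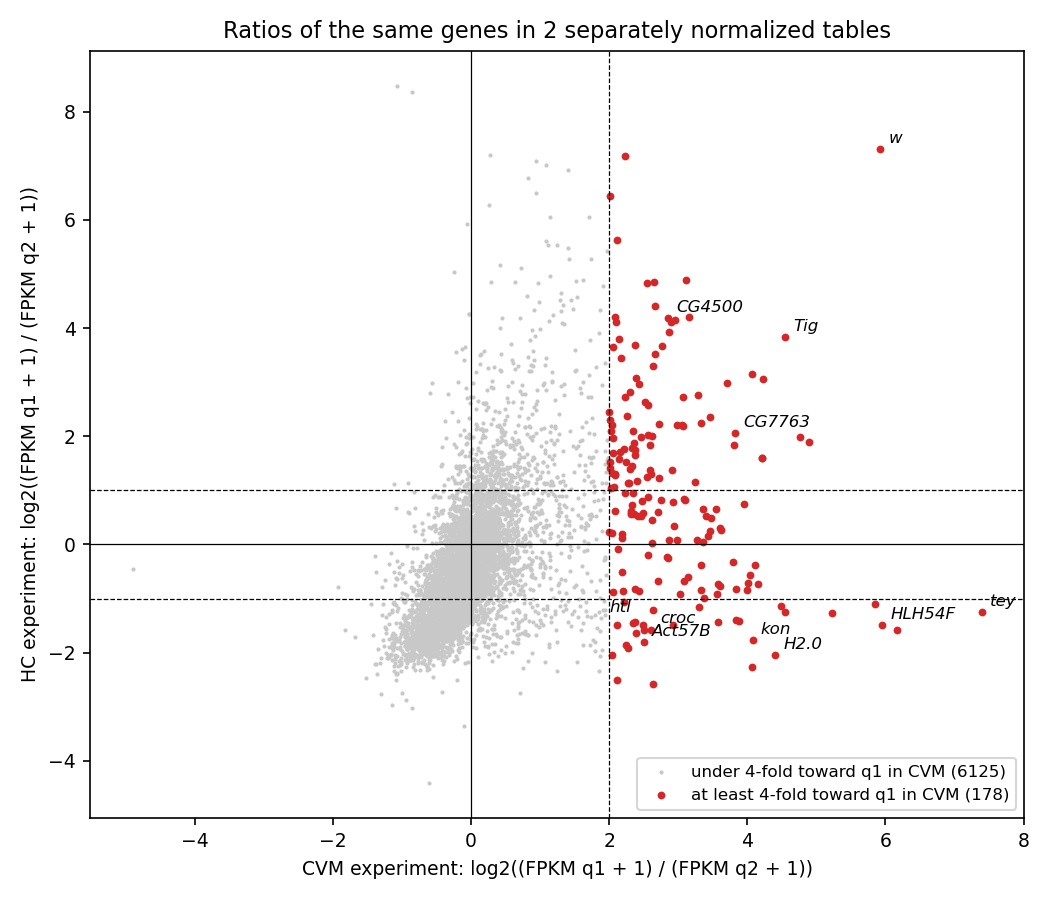
Log2 ratio in the HC experiment (vertical) against that in the CVM experiment (horizontal) for 6303 genes measured in both, with 178 genes at least 4-fold higher in q1 of the CVM table in red; dashed lines mark 4-fold (vertical line) and 2-fold (horizontal lines). HLH54F, tey, kon and H2.0 lie below 0 on the vertical axis, and w, Tig and CG4500 above it. The median of all 6303 genes on that axis is -0.57.

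The authors' tests imply a standard error for each ratio, with a median of 0.46 log2 units (quartiles 0.38 and 0.59), which holds no variation between samples. Read totals were not given. Among 2128 genes under 1 FPKM in both conditions, the most frequent ratio of q1 to q2 was 1.038, in 148 genes, which is what 1 read is worth in q1 relative to q2 if these are single reads. Genes close to a threshold include Lsd-2 (44.1 and 10.3 FPKM) just inside 4-fold and CG3973 (40.3 and 9.39) just outside it, and pros (21.3 and 43.6) just inside 2-fold toward q2.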

How the data were processed

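Messenger levels were analysed from 2 gene tables in Cuffdiff's layout. Per the submitters' processing notes, the authors used Bowtie 0.12.7, TopHat 1.3.3, Cufflinks 1.3.0 and Cuffdiff on build BDGP5; no source used here says how FPKM were scaled or which annotation was used. The deposited FPKM values were used as they stand. The score used is the authors' test statistic, and the q-value is the authors', per the file headers. Computed here with Python 3.11.15, numpy 2.4.6 and pandas 2.3.3 were log2 ratios with a pseudocount of 1, for genes of status OK with at least 5 FPKM in 1 condition or both. A size rule of 2-fold or 4-fold stood in for a test, since each condition has 1 library. The rule was tried on simulated data with changes somewhat larger than each fold, in genes of at least 20 FPKM. It found most changes planted for 2-fold and 4-fold but missed many for 16-fold at low FPKM, because the pseudocount shrinks them. The simulated noise was smaller than the median implied standard error. The trial therefore does not cover genes under 20 FPKM, changes right at a fold, or the noise of these data. Small RNA and mitochondrial genes were set apart after the values were seen, by symbol. The implied standard error is the authors' log2 fold divided by their statistic.

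The members, the 33 gene lists and the rules were chosen with earlier results of these data known, and 2 lists were added after the values were seen, which makes 35. Named genes were the markers, the 20 largest ratios per side, the highest levels, CG-numbered genes, list members, genes listed at 0 and those next to a threshold. Others named outside that rule included LanB1, LanB2 and vkg, chosen after their values were seen. Of the list names, 15 had no match. A shared locus means that the table gives the gene a region overlapping another gene's. Promoter motifs were not run, and no sequence is shown.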

Additional observations from a re-analysis of the deposited data

Results flagged for a closer look

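Genes outside the comparison, because their test status was not OK, numbered 70 at or above the floor of 5 FPKM, 24 of them small RNA or mitochondrial genes. Of the other 46, 7 passed 2-fold toward q1 and 1 toward q2. The kinase gene smi35A had 267 FPKM in q1 and 45.5 in q2, and the kinase gene msn 219.9 and 82.4. The small heat shock protein gene Hsp22 had 114.7 and 18.8, and Nc73EF 41.7 and 13.6. Fuca had 20.6 and 1.40, CG42456 19.4 and 0.427, and CG15072 10.7 and 3.48. Their values are levels in single libraries.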

How the results depend on the processing

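The number of genes at least 4-fold higher in q1, 381, fell to 165 with a pseudocount of 5. The number at least 2-fold higher in q1, 787, was 1205 with an FPKM floor of 1, 519 among genes whose locus is not shared, and 522 among those also called in the authors' deposited table. The number at least 2-fold higher in q2, 273, was 143 among genes whose locus is not shared, 40 among those also called in the authors' deposited table, and 122 without small RNA and mitochondrial genes, an alternative chosen after seeing the data. The pseudocount of 0.1, the floor of 10, genes of every status and centring on the median moved none of these counts by more than 1.5 times. Of 342 ratios of named genes, 46 moved by more than their implied standard error with a pseudocount of 0.1 and 82 with one of 5. Of 35 list medians, 5 moved by more than the list's median implied error with each, 5 with a floor of 1, 1 with a floor of 10 and 3 among loci not shared. Of 70 counts per list, 11 moved by more than 1.5 times with a pseudocount of 5, 8 among loci not shared, 7 each with a floor of 10 and with centring, 4 with a floor of 1 and 3 with a pseudocount of 0.1. No list median of at least 2-fold in size changed sign under the alternatives run. For single genes only the pseudocounts and the centring were run. These cannot change the sign of a ratio of at least 2-fold, so the signs of gene ratios were not checked. No paired analysis was possible because each condition has 1 library; for the same reason no library could be left out. The implied error covers 2 libraries only.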
